A study of Mus musculus with 9 samples.

Results

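The genes described here are 50 genes of mitosis and of the G2 phase that precedes it, measured in CD11b+ bone marrow cells of 9 mice. They were chosen by name, as members of a widely used list of genes that peak in G2 and mitosis. All 50 were among the 23337 genes in the files and all 50 were among the 12553 genes that passed the filter on low counts. CD11b, the product of Itgam, is an integrin chain carried by granulocytes and monocytes, so the selected cells range from dividing precursors to mature cells that no longer divide.

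All mice were of the C57BL/6 strain. They were male, according to the study's methods. Mice of the PBS group (n = 3) received 100 µl of PBS into the tail vein on days 1, 3 and 5, and mice of the EnzR EVs group (n = 3) received EnzR EVs on the same days, in the same volume and with 10 µg of EV protein each time. EnzR EVs are extracellular vesicles, called exosomes in the labels, from prostate cancer cells resistant to the androgen receptor inhibitor enzalutamide. Mice of the EnzR EVs + HDL NPs group (n = 3) received the same vesicles and, on days 0, 2 and 4, HDL NPs, synthetic nanoparticles that mimic high-density lipoprotein. The HDL NP dose is 1 µM in 100 µl in the labels, and the study's methods state a different concentration. No group received HDL NPs without EnzR EVs. Each library is the bulk RNA of 1 mouse, so that a smaller share of dividing cells and less RNA per dividing cell cannot be told apart.

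Genes of this kind share a common control. In resting cells their promoters are held silent by the DREAM complex, and in G2 they are switched on by B-Myb (Mybl2), FoxM1 and NF-Y. The protein products condense the chromosomes, build the spindle, attach it to kinetochores and split the cell, after which many are destroyed through the anaphase-promoting complex. In bone marrow the messages are carried by the cycling precursors and are lost as granulocytes mature.

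DREAM and its partners bind a cell cycle genes homology region (CHR), with the letters TTTGAA or TTTAAA, and NF-Y binds CCAAT boxes. Promoters from 250 bases before to 50 bases after the start site were available from RefSeq (GRCm38.p6) for 44 of the 50 genes, but not for Tpx2, Smc4, Aurkb, Cdc25c, Dlgap5 and Cdca2. Searched on both strands, TTTGAA was present in 31 of the 44 (70.5%), against 20.2% of 27025 genes with such a promoter, and TTTAAA in 11 (25%), against 14.9%. At least 1 CCAAT was present in 34 (77.3%), against 41.1%, and 2 or more in 27 (61.4%), against 13.3%. Both TTTGAA and CCAAT were found in 25 genes (56.8%), against 7.97% of all genes. These are matches of letters and not mapped binding sites. The promoters of 4 genes on which the later comparisons turn are printed below 5′ to 3′ on the strand of the gene, with TTTGAA and CCAAT, or their reverse complements TTCAAA and ATTGG, in capitals. They lie at chr10:69352863-69353162 (Cdk1, minus strand), chr4:118437294-118437593 (Cdc20, minus strand), chr2:164769679-164769978 (Ube2c, plus strand) and chr7:135716330-135716629 (Mki67, minus strand).

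Cdk1: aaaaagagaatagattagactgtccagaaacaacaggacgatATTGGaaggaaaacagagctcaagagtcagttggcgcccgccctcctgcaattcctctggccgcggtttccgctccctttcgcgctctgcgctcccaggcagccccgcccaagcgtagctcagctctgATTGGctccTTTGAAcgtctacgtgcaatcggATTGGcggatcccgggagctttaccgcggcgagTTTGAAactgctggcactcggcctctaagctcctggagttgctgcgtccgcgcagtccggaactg
Cdc20: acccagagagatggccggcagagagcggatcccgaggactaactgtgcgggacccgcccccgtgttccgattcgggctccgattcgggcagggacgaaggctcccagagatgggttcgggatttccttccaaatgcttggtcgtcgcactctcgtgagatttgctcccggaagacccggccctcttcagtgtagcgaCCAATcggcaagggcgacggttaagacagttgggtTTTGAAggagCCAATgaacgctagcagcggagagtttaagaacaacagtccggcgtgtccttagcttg
Ube2c: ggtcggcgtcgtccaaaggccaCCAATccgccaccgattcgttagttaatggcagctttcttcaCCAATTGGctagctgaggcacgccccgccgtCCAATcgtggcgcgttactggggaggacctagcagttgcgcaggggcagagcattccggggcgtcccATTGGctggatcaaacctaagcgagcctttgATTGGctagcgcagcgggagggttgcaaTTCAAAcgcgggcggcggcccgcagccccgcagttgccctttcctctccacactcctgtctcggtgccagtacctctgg
Mki67: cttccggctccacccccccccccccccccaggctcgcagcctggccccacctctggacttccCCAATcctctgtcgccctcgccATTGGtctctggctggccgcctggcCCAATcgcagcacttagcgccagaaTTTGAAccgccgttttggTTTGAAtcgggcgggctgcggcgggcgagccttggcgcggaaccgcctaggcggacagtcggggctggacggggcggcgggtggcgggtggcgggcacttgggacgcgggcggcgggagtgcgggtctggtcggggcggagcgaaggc

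Cdk1, Cdc20 and Ube2c each hold a TTTGAA within 30 bases before the start site, at -15, -18 and -29, while both copies in Mki67 lie farther out, at -116 and -98. Over 49 promoters of the 44 genes, TTTGAA was most frequent in the 25 bases after the start site, where 24.5% held it against 1.31% of all promoters.

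**Figure D1:**
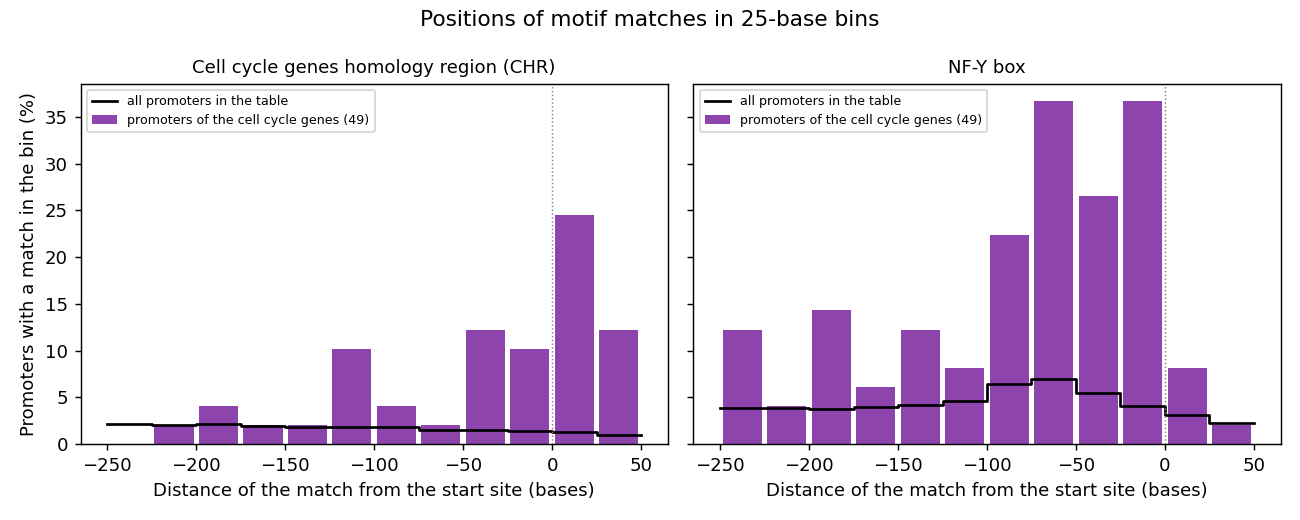
Share of promoters with a motif match in each 25-base bin, against distance from the start site in bases, for the 49 promoters of the cell cycle genes (bars) and all promoters in the table (line). The left panel is TTTGAA (CHR), with its highest bar, 24.5%, in the bin from 0 to 25, and the right panel is CCAAT (NF-Y box).

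Total counts ran from 2575776 to 18110561 per library, and the lowest count of any of the 50 genes in any library was 13. The myeloid marker Itgam lay between 1389 and 2006 CPM (counts scaled to a common library size with TMM factors, the CPM scale) in the 9 mice, and the T cell marker Cd3e between 0.0 and 1.65. Counts on Rn45s, the ribosomal RNA precursor that library preparation should deplete, differed widely. They took 20.3% of counts in PBS mouse 1, 42.7% in EnzR EVs mouse 1 and 14.2% in EnzR EVs mouse 3, but 0.657% to 2.87% in the other 6 libraries. The 3 libraries rich in Rn45s also had the 3 lowest totals, and their summed CPM of 21 intermediate and late granulocyte genes was 64977, 37843 and 80446, against 97711 to 165244 in the others. Results are therefore also given without these 3 libraries. That leaves 2 PBS mice, 1 EnzR EVs mouse and 3 EnzR EVs + HDL NPs mice, and the lone EnzR EVs mouse is assumed to vary like the others.

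Per kilobase of the longest transcript, the highest level was that of Lbr, the lamin B receptor of the inner nuclear membrane, which granulocytes also need to shape their lobed nucleus. Its level was 258 ± 17.8 CPM per kilobase (mean ± SD over 9 mice). Top2a, the topoisomerase that untangles sister chromatids, followed with 148 ± 23.5, and in all 9 mice Lbr exceeded Top2a and Top2a exceeded the next gene. Mki67, which coats mitotic chromosomes and encodes the proliferation marker Ki-67, had 102 ± 31.1 and Tmpo, a lamina-associated protein, 100.0 ± 9.77. Mki67 was above Tmpo in 6 of 9 mice, so that these neighbours did not differ beyond their spread. The lowest level was 2.38 ± 1.18 CPM per kilobase, in Psrc1, a spindle-associated protein named here after its values were seen.

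More of the 50 genes stood above their own mean over 9 mice in EnzR EVs mouse 2 and in EnzR EVs + HDL NPs mouse 1 than in the other mice. The number above its own 9-mouse mean was 28, 13 and 15 in PBS mice 1, 2 and 3, 20, 43 and 30 in EnzR EVs mice, and 35, 21 and 21 in EnzR EVs + HDL NPs mice. Their summed level was 7279, 6451 and 6464 CPM with PBS, 7008, 8327 and 7170 CPM with EnzR EVs, and 8195, 6875 and 7087 CPM with EnzR EVs + HDL NPs, so that the groups overlapped. EnzR EVs mouse 1 stood apart, since the 50 genes did not move together in it. It had the lowest value of 22 genes and the highest of 15, and the SD of the log2 deviations from the 9-mouse means was 0.81, against 0.20 to 0.33 in the other mice. Within groups the median SD of log2 CPM was 0.32 for the 50 genes and 0.36 for all tested genes, and it was 0.22 with PBS, 0.41 with EnzR EVs and 0.18 with EnzR EVs + HDL NPs. All tested genes had the same order, with 0.26, 0.45 and 0.21.

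Of the abundant genes of the spindle and kinetochore, 4 overlapped between groups in all 3 comparisons. Kif11, the motor that pushes spindle poles apart, had 338, 258 and 256 CPM with PBS, 323, 345 and 312 CPM with EnzR EVs, and 347, 268 and 283 CPM with EnzR EVs + HDL NPs. Ckap5, a microtubule polymerase, had 217 to 258 CPM, 185 to 269 CPM and 230 to 295 CPM in these groups. Of the kinetochore genes, Cenpf had 131 to 174 CPM, 128 to 175 CPM and 131 to 196 CPM, and Cenpe, a kinesin that carries chromosomes to the spindle equator, 113 to 176 CPM, 136 to 164 CPM and 125 to 186 CPM. The log2 fold changes of these 4 lay between -0.13 (Kif11, EnzR EVs + HDL NPs against EnzR EVs) and 0.24 (Cenpf, EnzR EVs + HDL NPs against PBS). Aurkb, the kinase of the chromosomal passenger complex, had 56.3 to 60.2 CPM, 52.7 to 70.6 CPM and 47.6 to 66.9 CPM, and Tmpo 401 to 477 CPM, 391 to 512 CPM and 414 to 467 CPM.

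**Figure D2:**
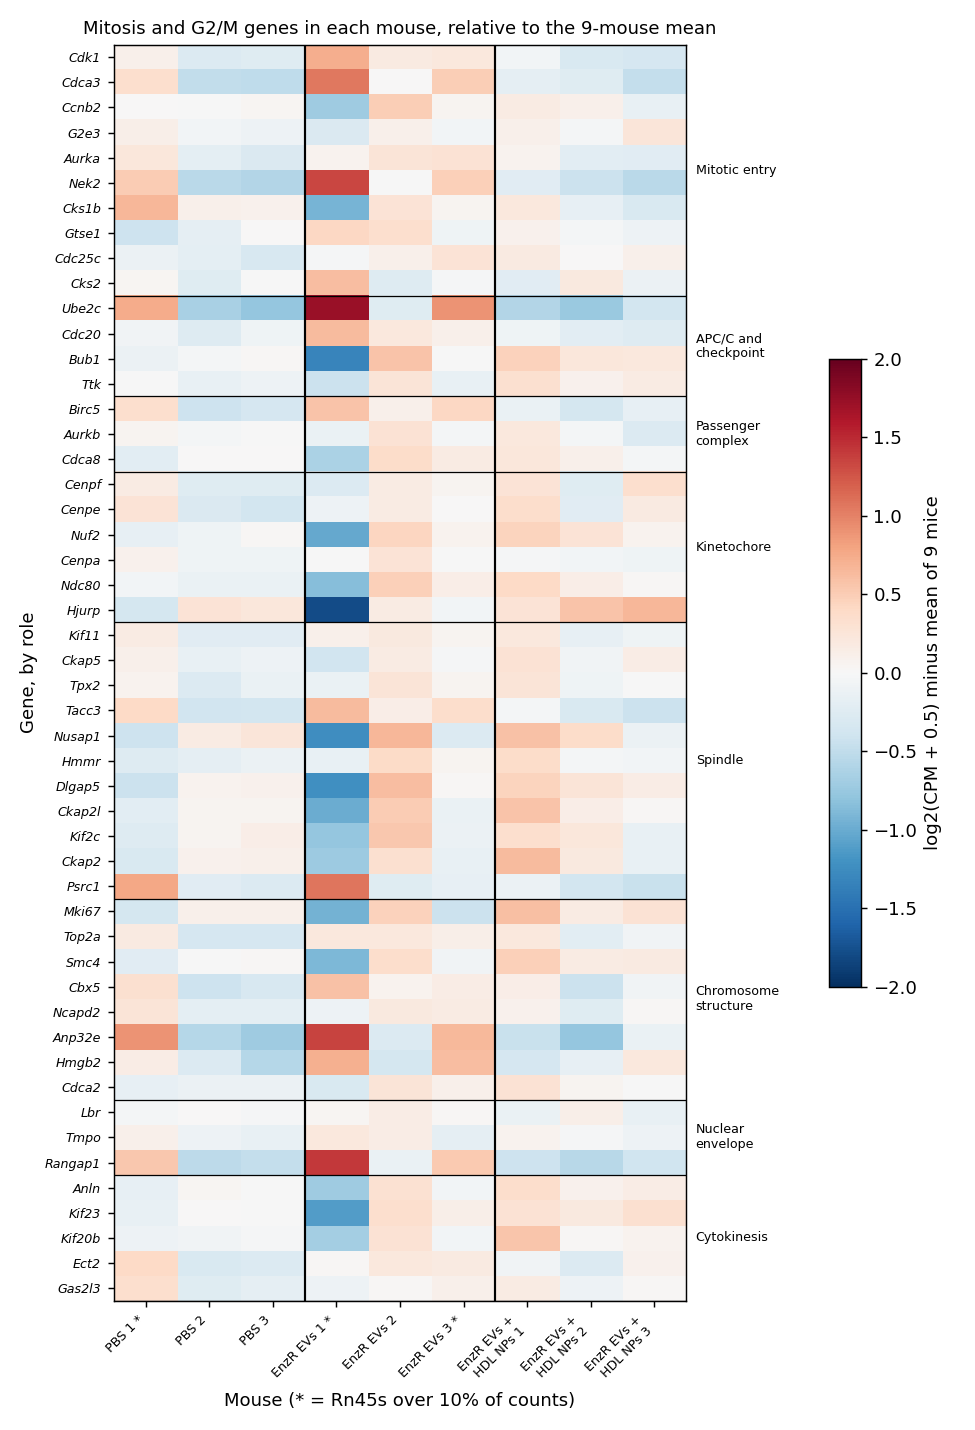
Log2(CPM + 0.5) of each of the 50 genes in each mouse, minus its mean over 9 mice, as colour (red higher, blue lower), with genes in rows by role and mice in columns. EnzR EVs mouse 1 holds both the lowest (Hjurp) and the highest (Ube2c) deviations, and mice marked with a star have over 10% of counts on Rn45s.

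Whether EnzR EVs altered these genes was asked by comparing EnzR EVs with PBS. Of the 50 genes, 38 were higher (76.0%, against 46.5% of all genes) and 12 lower with EnzR EVs by the sign of the fitted log2 fold change, with a median log2 fold change of 0.12 against -0.03 for all tested genes and a range from -0.37 (Cks1b) to 1.05 (Ube2c). By the quasi-likelihood test of edgeR, 0 of 50 passed an adjusted p of 0.05, as did 0 of all 12553 genes (0.0%), and the smallest adjusted p among the 50 was 0.928. DESeq2 and limma voom also called 0 of the 50, and over all genes they called 8 (0.0567%) and 0. At an unadjusted edgeR p under 0.05 there were 3 of 50 (6.0%, against 3.47% of all genes). All 3 were higher, while 1.55% of all genes were higher and 1.92% lower. DESeq2 gave 8 at this level (16.0%, against 3.65% of the 18794 genes to which it gave a p). In 4 genes every EnzR EVs mouse was above every PBS mouse (8.0%, against 3.43% of all genes), and in 0 every one was below (against 4.52%).

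The 3 genes with an unadjusted p under 0.05 were Cdk1 and Cdca3, of 10 mitotic entry genes, and Cdc20, of 4 genes of the anaphase-promoting complex and checkpoint. Cdk1, the kinase that drives entry, had 104, 79.4 and 81.8 CPM in PBS mice and 160, 109 and 112 CPM in EnzR EVs mice. The groups did not overlap, and the log2 fold change was 0.51 (SE 0.197, adjusted p = 0.928 by edgeR). Cdc20, which activates the anaphase-promoting complex, had 65.8, 57.9 and 65.3 CPM with PBS and 108, 80.4 and 74.1 CPM with EnzR EVs. These groups did not overlap either, with a log2 fold change of 0.46 (SE 0.175, adjusted p = 0.928 by edgeR). Cdc25c, the phosphatase that activates Cdk1, was low in both groups, from 12.4 to 14.4 CPM with PBS and from 15.4 to 19.0 CPM with EnzR EVs, and did not overlap. Lbr was the other gene without overlap, by a log2 fold change of 0.09.

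Cdca3, a trigger of mitotic entry, had 109, 61.3 and 60.6 CPM with PBS and 179, 86.9 and 121 CPM with EnzR EVs. Its log2 fold change was 0.74 (SE 0.296, adjusted p = 0.928 by edgeR), but PBS mouse 1 lay above EnzR EVs mouse 2. Nek2, a kinase that separates centrosomes, had 47.3, 22.7 and 21.9 CPM with PBS and 84.5, 33 and 46.2 CPM with EnzR EVs, and overlapped because PBS mouse 1 lay above EnzR EVs mice 2 and 3. Among the markers in wide use, Top2a had 866, 606 and 604 CPM with PBS and 880, 884 and 831 CPM with EnzR EVs. In Top2a the groups overlapped only through PBS mouse 1. Birc5, the survivin subunit of the chromosomal passenger complex, had a log2 fold change of 0.47 (SE 0.224) and Ccnb2, a mitotic cyclin, of 0.03 (SE 0.251). Mki67 had 763, 1054 and 1051 CPM with PBS and 510, 1354 and 726 CPM with EnzR EVs, so that the lowest and the highest of these 6 mice were both given EnzR EVs.

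Mice of these groups with the same replicate number deviated from their group means together, with r of 0.473, 0.492 and 0.131. The pairs were taken from these same data, as the labels do not say what the number marks. PBS mouse 3 correlated more with EnzR EVs mouse 2 (0.429). With the number as a block in the edgeR fit to all 9 libraries, 9 of the 50 genes had an unadjusted p under 0.05 (18%, against 5.95% of all genes), all of them higher with EnzR EVs. The block called 0 of the 50 at an adjusted p of 0.05 (smallest 0.739 by edgeR) and 1 gene in all. The 9 were Cdk1, Cdca3, Nek2, Tacc3, Rangap1, Ube2c, Birc5, Cbx5 and Cdc20, with log2 fold changes from 0.40 (Cbx5) to 1.02 (Ube2c). All of these except Cdk1 and Cdc20 had their 3 highest values in the 3 libraries rich in Rn45s. The EnzR EVs library held more Rn45s in pair 1 (42.7% against 20.3%) and pair 3 (14.2% against 1.17%). In pair 2 it held less (1.15% against 1.57%). Cdca3 and Nek2 were higher in the EnzR EVs mouse of all 3 pairs, as were 14 of the 50 genes (28.0%, against 14.7% of all genes), and 1 gene was lower in all 3 (against 18.3%).

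PBS mouse 1 and EnzR EVs mice 1 and 3, the libraries rich in Rn45s, belong to both groups of this comparison. Without them, 46 of 50 genes were higher in EnzR EVs mouse 2 than in both remaining PBS mice (92.0%, against 39.4% of all genes) and 2 were lower (4.0%, against 39.2%). The median log2 fold change was then 0.40, against -0.00 for all genes, and the smallest adjusted p of the 50 by edgeR was 0.458. Mki67 turned to a log2 fold change of 0.37. This value rests on 1 treated mouse and has no replicate of its own. Without PBS mouse 1 alone, 14 genes had an unadjusted p under 0.05, all higher, against 8.31% of all genes. In this setting 20 genes were above PBS without overlap, against 14.2% of all genes, and 1 below, against 16.2%. Single genes also moved. Cdca3 was 1.06, Nek2 1.24, Birc5 0.74 and Top2a 0.51 on the log2 scale without PBS mouse 1. Without EnzR EVs mouse 1 Cdca3 was 0.44, Nek2 0.39, Cdk1 0.33 and Cdc20 0.30.

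**Figure D3:**
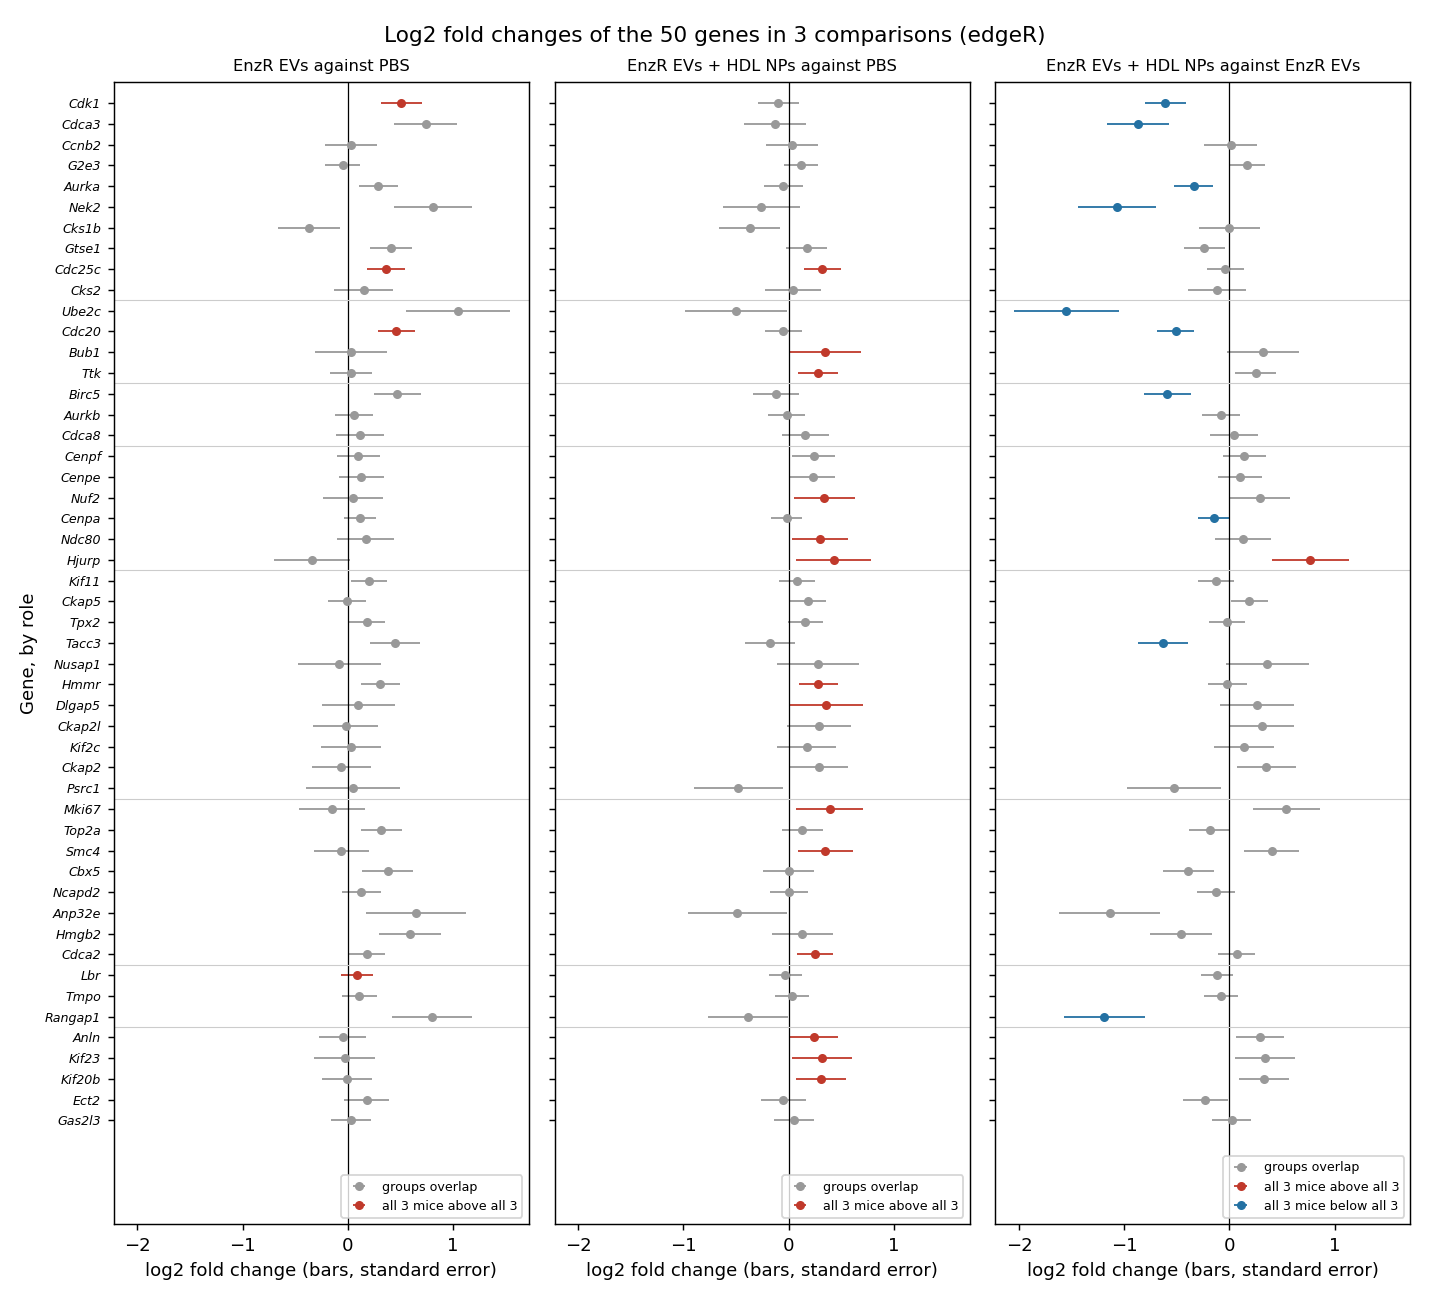
Log2 fold change (x axis) with its standard error (bars) from edgeR for each of the 50 genes by role (y axis) in 3 comparisons of 3 mice against 3, with colour marking groups that do not overlap. The panels hold 4, 14 and 11 coloured genes from left to right, and the largest change is that of Ube2c, at -1.55 in the right panel.

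EnzR EVs + HDL NPs were compared with PBS to ask how these genes stood when both were given. The PBS mice are the same as above, so that the comparisons are not independent. Here 33 genes were higher (66.0%, against 48.9% of all genes) and 17 lower, the median log2 fold change was 0.13 against -0.01 for all genes, and the range was from -0.50 (Ube2c) to 0.43 (Hjurp). By edgeR 0 of 50 passed an adjusted p of 0.05, as did 0 of all genes (0.0%), and at an unadjusted p under 0.05 there were 0 of 50 against 2.13% of all genes (1.02% higher and 1.12% lower). DESeq2 gave 0 of 50 at this level, against 1.49% of all genes. DESeq2 called 0 of the 50 and 7 genes in all (0.0604%), and limma voom called 0 of either. The spread behind the SEs and p values of edgeR was estimated from all 9 libraries, EnzR EVs mice included. In EnzR EVs mice the median SD of log2 CPM of the 50 genes was 0.41, against 0.22 with PBS and 0.18 with EnzR EVs + HDL NPs. In 14 genes every EnzR EVs + HDL NPs mouse was above every PBS mouse (28.0%, against 6.96% of all genes), and in 0 every one was below (against 6.21%). With 3 mice against 3, the exact two-sided permutation p for such a gene is 0.1, the smallest this design allows.

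By role, these 14 genes were 3 of 8 of chromosome structure, 3 of 6 of the kinetochore, 3 of 5 of cytokinesis, 2 of 4 of the anaphase-promoting complex and checkpoint, 2 of 11 of the spindle and 1 of 10 of mitotic entry, against 6.96% of all genes. Of the chromosomal passenger complex and of the nuclear envelope there were 0 of 3 each. Differences between roles were not tested. Among genes of chromosome structure they were Mki67, Smc4, the ATPase of condensin, and Cdca2, which directs a phosphatase to chromatin at mitotic exit. Mki67 had 1490, 1093 and 1189 CPM with EnzR EVs + HDL NPs, above the 763 to 1054 CPM of the PBS mice, with a log2 fold change of 0.39 (SE 0.319). Smc4 had 299, 346 and 355 CPM with PBS and 485, 391 and 395 CPM with EnzR EVs + HDL NPs, a log2 fold change of 0.35 (SE 0.265). The other genes of chromosome structure overlapped, Top2a among them, with 886, 659 and 727 CPM.

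The kinetochore genes without overlap were Ndc80 and Nuf2, partners in the complex that grips microtubules, and Hjurp, the chaperone that places the centromeric histone. Hjurp had 20.2, 31.4 and 30.5 CPM with PBS and 31.5, 38.5 and 41.4 CPM with EnzR EVs + HDL NPs, a log2 fold change of 0.43 (SE 0.357), and its nearest values, 31.4 and 31.5, were almost equal. Nuf2 had 49.1, 52.1 and 56.2 CPM with PBS and 75.1, 66.8 and 57.8 CPM with EnzR EVs + HDL NPs. Of the checkpoint kinases, Bub1 had 51.2 to 56.4 CPM with PBS and 64.8 to 76.7 CPM with EnzR EVs + HDL NPs, and Ttk 26.3 to 29.0 and 31.0 to 36.6 CPM.

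The cytokinesis genes without overlap were Kif23 and Kif20b, kinesins of the central spindle, and Anln, a scaffold of the contractile ring. Kif23 had 93.1, 104 and 102 CPM with PBS and 126, 118 and 128 CPM with EnzR EVs + HDL NPs, a log2 fold change of 0.32 (SE 0.286). The remaining genes without overlap were the spindle proteins Dlgap5 and Hmmr and the phosphatase Cdc25c. Cdc25c, with 17.7, 15.8 and 16.8 CPM, had the smallest p of the 50 (adjusted p = 1.000 by edgeR), and it was also above PBS in every EnzR EVs mouse. Cdk1, Birc5 and Ccnb2 lay close to PBS, with log2 fold changes of -0.10, -0.12 and 0.03 and SEs of 0.196, 0.221 and 0.25.

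Without the 3 libraries rich in Rn45s, 25 of 50 genes were above both remaining PBS mice in every EnzR EVs + HDL NPs mouse (50%, against 10.7% of all genes), and 0 were below (against 10.1%). The median log2 fold change was then 0.21 and 46 of 50 were above 0, while the smallest adjusted p by edgeR was 0.893. Leaving out PBS mouse 1 alone gave 26 genes above PBS without overlap, against 10.5% of all genes, and 0 below, against 10.2%. The log2 fold change of Hjurp was then 0.26, that of Mki67 0.26 and that of Top2a 0.32.

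**Figure D4:**
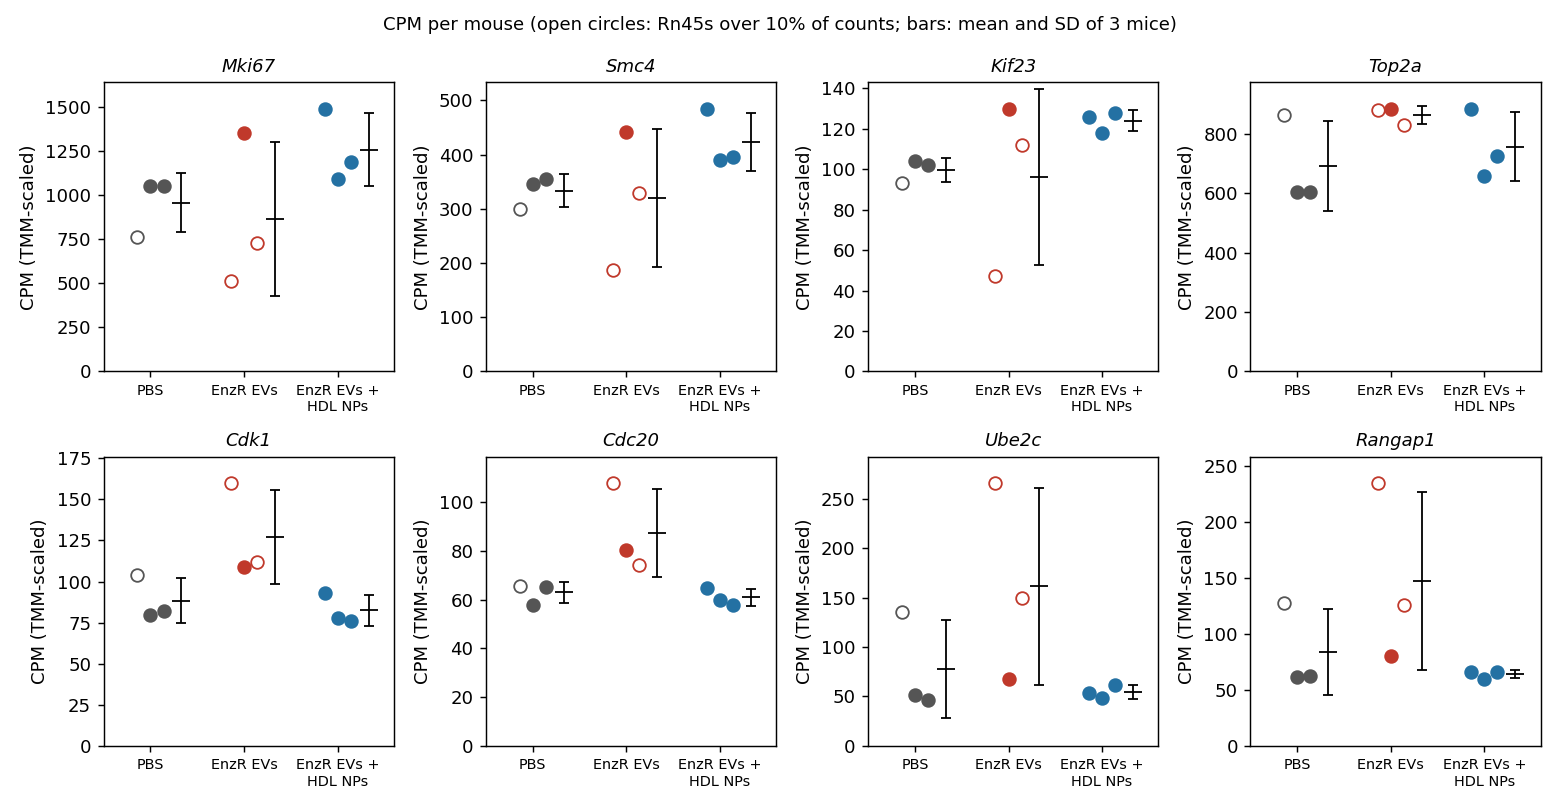
CPM of 8 genes in each mouse (y axis) by group (x axis), with the mean and SD of 3 mice beside the points and open circles for libraries with over 10% of counts on Rn45s. Mki67, Smc4 and Kif23 are lowest in EnzR EVs mouse 1 (510, 187 and 47.2 CPM), and Cdk1, Cdc20, Ube2c and Rangap1 are highest there (160, 108, 266 and 235 CPM).

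How these genes stood with HDL NPs added was asked by comparing EnzR EVs + HDL NPs with EnzR EVs. This comparison shares mice with both comparisons above. As no group received HDL NPs alone, an altered response to EnzR EVs cannot be told apart from an effect of HDL NPs themselves. Of these 2 groups, only EnzR EVs mice 1 and 3 had libraries rich in Rn45s. Here 23 genes were higher (46.0%, against 52.8% of all genes) and 27 lower with HDL NPs, with a median log2 fold change of -0.02 against 0.03 for all genes and a range from -1.55 (Ube2c) to 0.77 (Hjurp). By edgeR 0 of 50 passed an adjusted p of 0.05, as did 0 of all genes (0.0%), and the smallest adjusted p was 0.461, both among the 50 and among all genes. DESeq2 called 0 of the 50 and 1 gene in all (0.00532%), and limma voom 0 of either. At an unadjusted edgeR p under 0.05 there were 9 of 50, all lower with HDL NPs (18%, against 10.6% of all genes, of which 3.58% were higher and 6.97% lower). All of the 9 except Cdk1 and Cdc20 had their 3 highest values over all mice in the libraries rich in Rn45s. DESeq2 gave 10 at this level (20.0%, against 9.83% of all genes). In 10 genes every EnzR EVs + HDL NPs mouse was below every EnzR EVs mouse (20.0%, against 8.58%), and in 1, Hjurp, every one was above (2.0%, against 8.99%).

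By role, the 10 genes that were lower without overlap were 4 of 10 of mitotic entry, 2 of 4 of the anaphase-promoting complex and checkpoint, and 1 each of 3 of the passenger complex, 3 of the nuclear envelope, 6 of the kinetochore and 11 of the spindle, against 8.58% of all genes. Of chromosome structure there were 0 of 8 and of cytokinesis 0 of 5. Ube2c, the ubiquitin-conjugating enzyme of the anaphase-promoting complex, had 266, 68.1 and 150 CPM with EnzR EVs and 53.4, 47.9 and 62.0 CPM with EnzR EVs + HDL NPs. The groups did not overlap, and the log2 fold change was -1.55 (SE 0.496, adjusted p = 0.461 by edgeR). In PBS mice Ube2c had 135, 51.2 and 46.6 CPM, so that its 3 highest values were those of the libraries rich in Rn45s. Rangap1, which activates the GTPase of Ran, had 235, 80.1 and 126 CPM with EnzR EVs and 65.8, 59.7 and 66.4 CPM with EnzR EVs + HDL NPs (log2 fold change -1.19, SE 0.386, adjusted p = 0.461 by edgeR). PBS mouse 1 again stood with the EnzR EVs mice, at 128 CPM against 61.1 and 62.6 CPM.

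Cdk1 had 93.3, 77.9 and 76.1 CPM with EnzR EVs + HDL NPs, below the 109 to 160 CPM of EnzR EVs mice, with a log2 fold change of -0.61 (SE 0.197, adjusted p = 0.461 by edgeR). Cdc20 had 65.0, 59.9 and 58.0 CPM, below the 74.1 to 108 CPM of EnzR EVs mice, a log2 fold change of -0.51 (SE 0.175). In Cdk1 and Cdc20 the 3 EnzR EVs mice were thus above all PBS mice and all EnzR EVs + HDL NPs mice. Cdca3 and Nek2 had log2 fold changes of -0.87 and -1.07, and Birc5 and Tacc3, a spindle protein, -0.59 and -0.63. Aurka, the centrosomal Aurora kinase, and Cenpa, the centromeric histone itself, did not overlap either, but with log2 fold changes of only -0.34 and -0.15.

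Hjurp had 7.13, 29.2 and 24.9 CPM with EnzR EVs and stood above all of these in the EnzR EVs + HDL NPs mice (log2 fold change 0.77, SE 0.364, adjusted p = 0.461 by edgeR). Its value of 7.13 CPM in EnzR EVs mouse 1 rests on 13 counts. Mki67 and Top2a overlapped, with log2 fold changes of 0.54 (SE 0.319) and -0.19 (SE 0.194). With a mouse left out Mki67 was 0.27 to 1.00 and Top2a -0.33 to -0.13. Mki67 turned to -0.11 without the libraries rich in Rn45s.

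Without the 3 libraries rich in Rn45s, 27 of 50 genes were below EnzR EVs mouse 2 in every EnzR EVs + HDL NPs mouse (54%, against 22.5% of all genes) and 3 were above (6.0%, against 22.2%). EnzR EVs mouse 2 is the only mouse of its group in this setting, and the genes read in it are not replicates. The median log2 fold change was then -0.22, and the smallest adjusted p by edgeR was 0.958. Ube2c, Rangap1, Cdca3 and Nek2 were nearer to 0 in this setting, at log2 fold changes of -0.33, -0.33, -0.31 and -0.39, as were Cdk1 (-0.40), Birc5 (-0.32), Tacc3 (-0.38) and Hjurp (0.34). Without EnzR EVs mouse 1 alone, Ube2c was at -1.01, Rangap1 at -0.70, Cdca3 at -0.57, Nek2 at -0.65 and Hjurp at 0.44, and 4 of the 50 genes had an unadjusted p under 0.05, against 5.19% of all genes. Without EnzR EVs mouse 2 there were 20, 10 higher and 10 lower, against 29.3% of all genes.

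**Figure D5:**
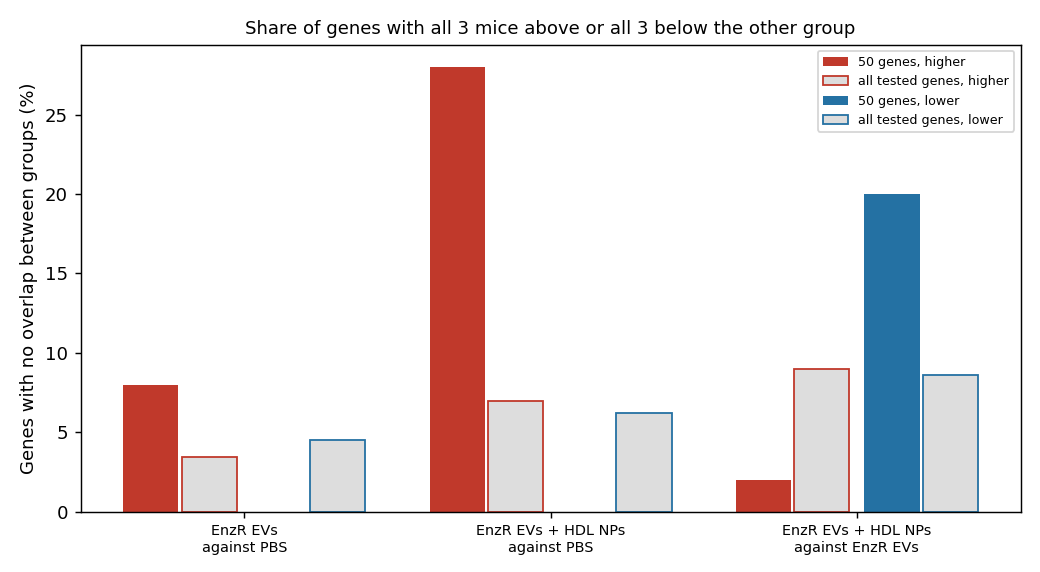
Share (y axis, percent) of the 50 genes (filled bars) and of all 12553 tested genes (grey bars) with all 3 mice of a group above (red) or below (blue) all 3 of the other, in each comparison (x axis). The filled bars reach 28.0% higher for EnzR EVs + HDL NPs against PBS and 20.0% lower for EnzR EVs + HDL NPs against EnzR EVs, and no filled bar means 0 genes.

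The 14 genes above PBS and the 10 genes below EnzR EVs in every EnzR EVs + HDL NPs mouse had 0 members in common. Their median GC content was 43.6% and 51.2%, and their median transcript length 3890 and 2966 bases, against 45.6% and 3518 bases for all 50. Across the 50 genes the log2 fold change had a Spearman rho with GC content of 0.31, -0.46 and -0.45 in the 3 comparisons, in the order given above. Across 11347 tested genes it was 0.16, -0.32 and -0.32. These describe genes that share libraries and are not tests. The 3 libraries rich in Rn45s were the 3 highest of 9 in 8 genes (16.0%, against 15.5% of all genes) and the 3 lowest in 7 (14%, against 17.9%). The 8 were Ube2c, Birc5, Tacc3, Anp32e, Cdca3, Rangap1, Nek2 and Cbx5, and the 7 were Nusap1, Mki67, Smc4, Ckap2l, Hjurp, Dlgap5 and Anln. The part of ribosomal RNA content, depth, GC content and granulocyte composition in these values was not tested. The 31 genes with the letters TTTGAA in the promoter and the 13 without had median log2 fold changes of 0.12 and 0.13 in the comparison of EnzR EVs with PBS. With HDL NPs they were 0.13 and 0.05 relative to PBS, and -0.02 and -0.12 relative to EnzR EVs.

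Exons of 6 of the 50 genes overlap those of a counted gene on the other strand, Ube2c, Cdc20, Rangap1, Tacc3, Nusap1 and Cdca8. The strand setting of the counting is not given in the sources used here, so reads of such pairs may not have been told apart.

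Other genes of the cell cycle were read from lists beside the 50, and 0 genes of any list passed an adjusted p of 0.05 by edgeR in any comparison. Of 81 other mitosis genes, 64 were higher with EnzR EVs than with PBS (median log2 fold change 0.17), against 46.5% of all genes. Of these 81, 6 had an unadjusted p under 0.05, all higher, against 1.55% of all genes. Without overlap 7 were higher and 1 lower, against 3.43% and 4.52%. With EnzR EVs + HDL NPs relative to PBS, 53 were higher (median 0.07), against 48.9% of all genes. Such a p was reached by 0 of the 81, against 2.13% of all genes. There 15 were above PBS without overlap and 2 below, against 6.96% and 6.21% of all genes. Relative to EnzR EVs the median was -0.07, and 10 had such a p, all lower, against 6.97% of all genes. In this comparison 21 were lower without overlap and 1 higher, against 8.58% and 8.99%. Plk1, the kinase that promotes spindle formation and mitotic exit, had 66.2, 37.7 and 38.3 CPM with PBS, 76.3, 57.4 and 81.6 CPM with EnzR EVs and 42.6, 36.0 and 49.7 CPM with EnzR EVs + HDL NPs. Its log2 fold change was 0.60 (SE 0.252) for EnzR EVs against PBS and -0.74 (SE 0.251) for EnzR EVs + HDL NPs against EnzR EVs, with adjusted p of 0.928 and 0.461 by edgeR.

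Of 71 genes of S phase and DNA replication, 51 were higher with EnzR EVs than with PBS (median 0.13), against 46.5% of all genes. At an unadjusted p under 0.05, 3 were higher and 0 lower, against 1.55% and 1.92% of all genes. With EnzR EVs + HDL NPs, 32 of the 71 were above PBS (median -0.05), against 48.9% of all genes. At this p, 0 were higher and 0 lower, against 1.02% and 1.12%. With EnzR EVs + HDL NPs, 20 of the 71 were above EnzR EVs (median -0.21), against 52.8% of all genes. There 0 were higher and 12 lower at this p, against 3.58% and 6.97%. Without overlap, 3 were higher and 0 lower, 2 higher and 3 lower, and 0 higher and 19 lower in the 3 comparisons in turn, against 3.43% and 4.52%, 6.96% and 6.21%, and 8.99% and 8.58% of all genes. Pcna, the sliding clamp of replication, had log2 fold changes of -0.20, -0.05 and 0.15 in the same 3 comparisons, and Mcm2, a subunit of the replicative helicase, 0.12, -0.22 and -0.33. Of 23 regulators of G2/M transcription, 2 had such a p as higher and 1 as lower with EnzR EVs relative to PBS, against 1.55% and 1.92% of all genes. With HDL NPs there were 0 relative to PBS and 4, all lower, relative to EnzR EVs, against 2.13% and 6.97%. Foxm1 had 52.3 to 62.3 CPM with PBS, 63.1 to 70.2 CPM with EnzR EVs and 56.9 to 69.5 CPM with EnzR EVs + HDL NPs. Mybl2 had 31.9, 16.7 and 16.8 CPM, 74.1, 17.7 and 31.6 CPM, and 15.4, 14 and 18.2 CPM in these groups. Its 3 highest values were those of the libraries rich in Rn45s. Of 17 tested G1 cyclins and CDK inhibitors, 14, 2 and 3 were higher in the 3 comparisons, against 46.5%, 48.9% and 52.8%. The medians of this list were 0.15, -0.08 and -0.34. An unadjusted p under 0.05 was reached by 1, higher (against 1.55% of all genes), then by 0 (against 2.13%), and then by 3, all lower (against 6.97%). The smallest p in EnzR EVs + HDL NPs against EnzR EVs were those of Ccnd3, a G1 cyclin, and Cdkn2d, with log2 fold changes of -1.05 (SE 0.304) and -0.91 (SE 0.264). Cdkn1a had log2 fold changes of 0.07, -0.93 and -1.0 (SE 0.558, 0.546 and 0.56) and Cdkn2c of -0.09, -0.07 and 0.02.

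Markers of the precursors and of other cell types stood beside these values as follows. The summed level of 14 early granulocyte genes, made by the dividing precursors, was 3196 to 3469 CPM with PBS, 3548 to 3814 CPM with EnzR EVs and 2420 to 3310 CPM with EnzR EVs + HDL NPs. The median log2 fold change of this list was 0.12 with EnzR EVs relative to PBS, and with HDL NPs it was -0.40 relative to PBS and -0.28 relative to EnzR EVs. An unadjusted p under 0.05 was reached by 1 of the 14, higher, with EnzR EVs relative to PBS (against 1.55% of all genes). With HDL NPs it was reached by 2, both lower, relative to PBS (against 1.12%) and by 5, all lower, relative to EnzR EVs (against 6.97%). The 18 tested erythroid genes, which mark another dividing lineage, summed to 284 to 425 CPM, 191 to 237 CPM and 157 to 470 CPM, with 9 of 18 lower at an unadjusted p under 0.05 in EnzR EVs against PBS, where 1.92% of all genes were. The 14 stem and progenitor cell genes in the files summed to 297 to 315 CPM, 253 to 326 CPM and 252 to 364 CPM. The 12 of them that were tested had medians of -0.07, -0.21 and -0.02 in the 3 comparisons. The 15 monocyte genes summed to 3974 to 4714 CPM, 2613 to 4021 CPM and 3493 to 4489 CPM, with medians of -0.31, -0.19 and 0.19. With EnzR EVs 5 of the 15 were below PBS without overlap, against 4.52% of all genes, and 2 had an unadjusted p under 0.05, both lower, against 1.92%. The 21 intermediate and late granulocyte genes had medians of -0.14, 0.07 and 0.22. For B lineage genes the medians were -0.82, -0.71 and 0.22, for NK and T cell genes -0.39, -0.30 and 0.07, and for platelet and megakaryocyte genes -0.43, -0.52 and 0.15. The part of these cell types in the levels of the 50 genes was not tested.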

How the data were processed

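For each of the 9 libraries, 1 per mouse, the authors deposited a table of raw counts by gene symbol. According to the methods and the submitters' processing notes, stranded total RNA libraries depleted of ribosomal RNA were sequenced as 75 bp single reads, trimmed with cutadapt 1.13, aligned to mm10 with STAR and counted with HTSeq 0.6.1p1. Samples were grouped by their labels, and 0 columns stayed unmapped.

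From these counts edgeR 4.0.16 (R 4.3.3) was used with filterByExpr, TMM normalization and a robust quasi-likelihood fit to all 9 libraries with a coefficient per group, with Benjamini-Hochberg adjustment over 12553 genes and a threshold of 0.05. The common biological coefficient of variation was 0.259. Log2 CPM for SDs used a prior count of 2. DESeq2 1.42.0 and limma 3.58.1 (voom) were alternatives, as were other normalizations, no filter, leaving out Rn45s, mitochondrial, hemoglobin and small RNA genes, the replicate number as a block, leaving out libraries with over 10% of counts on Rn45s, and leaving out each mouse. DESeq2 was run without filterByExpr, so its shares of all genes at an unadjusted p are over 18794 genes. Its shares of called genes are over the 14117, 11598 and 18794 genes with an adjusted p in the 3 comparisons in turn. Tested on simulated data for EnzR EVs against PBS over 12553 genes, edgeR recovered 17% of changes of log2 size 1 and 82% of size 2, with 2.94% of calls false. DESeq2 recovered 34% and 86%, with 15.5% of calls false, and limma voom 16% and 75%, with 3.19% false. Same-numbered PBS and EnzR EVs mice correlated in their deviations from group means (log2 CPM of all tested genes) at 0.473, 0.492 and 0.131. They were taken as pairs from these data, since the labels do not say what the number marks. Number 3 is the weakest pair, since PBS mouse 3 correlated more with EnzR EVs mouse 2 (0.429) and EnzR EVs mouse 3 more with PBS mouse 2 (0.156). Same-numbered pairs with EnzR EVs + HDL NPs mice (-0.175 to 0.293) were not taken as pairs.

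Genes were matched by symbol to GENCODE M21 (GRCm38, the assembly of mm10) for length and GC content. A count of 3 corresponds to 0.16 to 1.65 CPM. Reads carry no molecular identifiers, so this covers counting error only. The members and lists were chosen with earlier results of these data known. Named genes were the 2 most abundant of each role, the 4 with the smallest p in each comparison, those without overlap and 5 common markers; genes at the ends of a range or in a counted pattern were named after their values were seen.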

Additional observations from a re-analysis of the deposited data

How the results depend on the processing

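No alternative called any of the 50 genes at an adjusted p of 0.05, and the smallest adjusted p in any of 17 settings was 0.0833. Among the named genes this value was shared by Ube2c, Rangap1, Cdca3 and Mki67 in EnzR EVs + HDL NPs against EnzR EVs. Over all genes, edgeR's 0 calls for EnzR EVs against PBS became 8 with DESeq2, 1 with no filter on low counts and 10 without the libraries rich in Rn45s (which leaves 1 EnzR EVs mouse), and 0 to 2 with a mouse left out. For EnzR EVs + HDL NPs against PBS they became 7 with DESeq2, and for EnzR EVs + HDL NPs against EnzR EVs 1 with DESeq2 and 1 without the libraries rich in Rn45s.

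Of the 50 genes, the number with an unadjusted p under 0.05 in EnzR EVs against PBS was 3, and 8 with DESeq2, 5 with limma voom, 0 with library size only and 23 without the libraries rich in Rn45s, against 3.47%, 3.65%, 3.11%, 2.89% and 5.59% of all genes. With a mouse left out it was 0 to 14 (14 without PBS mouse 1, 11 without EnzR EVs mouse 2 and 0 without PBS mouse 2, against 8.31%, 16.6% and 1.56% of all genes). In EnzR EVs + HDL NPs against PBS it was 0, then 7 without the libraries rich in Rn45s (against 2.13% and 4.72% of all genes). With a mouse of either group left out it was 0 to 1, against 1.11% to 2.13% of all genes. The 1 came without PBS mouse 1 (against 1.37%). In EnzR EVs + HDL NPs against EnzR EVs it was 9, then 4 with library size only (against 7.23% of all genes) and 4 to 20 with a mouse left out (4 without EnzR EVs mouse 1 and 20 without EnzR EVs mouse 2, against 5.19% and 29.3%). The cause was not tested.

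Genes without overlap went in EnzR EVs against PBS from 4 to 2 with library size only (both higher, against 1.47%), to 48 without the libraries rich in Rn45s (46 higher and 2 lower, against 39.4% and 39.2%) and to 5 to 21 with a mouse left out, where 5.13% to 14.2% of all genes were higher and 5.53% to 16.2% lower. In EnzR EVs + HDL NPs against PBS they went from 14 to 25 without the libraries rich in Rn45s (all higher, against 10.7%) and were 14 to 26 with a mouse left out (10.5% to 14.6% of all genes higher, 9.42% to 13.3% lower). In EnzR EVs + HDL NPs against EnzR EVs they went from 11 to 7 with library size only (1 higher and 6 lower, against 14.8% and 3.19%) and to 30 without the libraries rich in Rn45s (3 and 27, against 22.2% and 22.5%), and were 12 to 25 with a mouse left out. The 25, without EnzR EVs mouse 2, were 12 higher and 13 lower, against 25.6% and 24.3% of all genes. Fewer mice make overlap less frequent by construction.

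Scaling by library size only moved the median log2 fold change of all genes to -0.18, 0.05 and 0.24 in the 3 comparisons, and that of the 50 genes to -0.02, 0.21 and 0.18, with 21, 40 and 37 of 50 above 0 in place of 38, 33 and 23. Relative to all genes, the 50 lay at 0.16, 0.16 and -0.06, against 0.15, 0.14 and -0.05 with TMM. Without the libraries rich in Rn45s the medians of the 50 were 0.40, 0.21 and -0.22.

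With the replicate number as a block, EnzR EVs against PBS had 1 gene called in all and 9 of the 50 at an unadjusted p under 0.05 (against 5.95% of all genes), and Ccnb2 turned to -0.01. It changed no other call. In the comparisons with EnzR EVs + HDL NPs, same-numbered mice were not taken as pairs. There the block gave 0 of the 50 at an unadjusted p under 0.05 relative to PBS, against 3.79% of all genes. Relative to EnzR EVs it gave 11 (1 higher and 10 lower, against 18.2% of all genes). Over all groups 3 of 9 mice correlated best with their own number.

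Of 42 values of named genes, 32 kept their direction in all settings, and 10 reversed in at least 1. In EnzR EVs against PBS, library size only gave Lbr -0.09 and Ccnb2 -0.10. Mki67 was 0.37 without the libraries rich in Rn45s and -0.60 to 0.13 with a mouse left out, and Ccnb2 -0.25 to 0.28. In EnzR EVs + HDL NPs against PBS, Cdk1 was 0.03 and Birc5 0.16 without the libraries rich in Rn45s, and with a mouse left out Cdk1 was -0.19 to 0.03, Birc5 -0.25 to 0.15 and Ccnb2 -0.02 to 0.12. In EnzR EVs + HDL NPs against EnzR EVs, Ccnb2 was -0.02 with limma voom, -0.01 with DESeq2 size factors, -0.44 without the libraries rich in Rn45s and -0.25 to 0.28 with a mouse left out, Cenpa 0.07 and Top2a 0.06 with library size only, and Mki67 -0.11 without the libraries rich in Rn45s.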
